A study of Mus musculus with 2 samples.

Results

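The genes described here are 46 mouse genes that neurons of the gut wall use for their cytoskeleton, their RNA-binding proteins, their synapses and their transmitters, read in RNA of embryonic stomach. They were taken by symbol from a fixed list and not by a cut on any measured value. The list was chosen with earlier results of these data known. All 46 were found among the 43346 Ensembl genes of the tables. By role, 16 of them encode cytoskeletal, growth-cone and RNA-binding proteins, 8 belong to synaptic release, 4 are cholinergic, 1 is nitrergic, 6 encode peptide transmitters, 5 are catecholaminergic, 5 are receptor subunits and 1 is glutamatergic. The study sequenced total RNA of stomach from B6NCrl mouse embryos at 14.5 days of gestation. It has 2 libraries, biological replicates 1 and 2 of 1 group, with no treatment, genotype or second time point. Per the labels each library was made from the stomach of 1 pup, with tissue collected on day 15 (replicate 1) and day 17 (replicate 2) of the same month, while the sex is given as pooled male and female, which does not go together with a single pup. The labels also give a mirVana extraction, 10 ng of starting RNA, molecules above 200 nt and added spike-in RNAs.

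Enteric neurons descend from neural crest cells that migrate into the gut and settle in ganglia between the muscle layers, where excitatory neurons release acetylcholine and tachykinins and inhibitory neurons release nitric oxide and vasoactive intestinal peptide. A neuron that has left the cell cycle turns on Hu RNA-binding proteins, neuronal tubulin and growth-cone proteins, and adds vesicle proteins and transmitter enzymes as it matures. Some enteric precursors pass through a stage with catecholamine enzymes and lose them later.

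Levels are given in TPM, a unit that scales transcript abundance by transcript length and library total and can be set beside each other between genes, and in expected counts, the estimated reads per gene. Genes took 23668322 expected counts in replicate 1 and 23882647 in replicate 2. Detected means a level of TPM 1 or above in each of the 2 libraries. Differences between them are given as log2 ratios of replicate 2 over replicate 1, and with 1 library on each side no p-value can be given for any gene. Their 95% intervals (exact Clopper-Pearson) treat reads as independent and cover counting error only. Reads amplified without molecular identifiers are not independent molecules, so the intervals may be too narrow even for that error. In RNA of a whole organ, fewer neurons and less RNA per neuron cannot be told apart.

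Sequences of 4 coding stretches are shown because the transcript tables tell forms of these genes apart by them. Positions and letters are those of the mm10 assembly and the GENCODE M21 annotation, and each sequence reads 5′ to 3′ on the plus strand. Snap25, which encodes a membrane protein of the vesicle fusion complex, has a pair of alternative exons of 118 bases, the upstream one at chr2:136769743-136769860 and the downstream one at chr2:136770057-136770174. Capitals mark the 31 bases that differ between them (73.7% identity).
Snap25 upstream exon: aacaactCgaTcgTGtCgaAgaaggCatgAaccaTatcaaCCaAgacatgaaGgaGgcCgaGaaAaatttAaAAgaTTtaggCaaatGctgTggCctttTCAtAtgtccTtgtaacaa
Snap25 downstream exon: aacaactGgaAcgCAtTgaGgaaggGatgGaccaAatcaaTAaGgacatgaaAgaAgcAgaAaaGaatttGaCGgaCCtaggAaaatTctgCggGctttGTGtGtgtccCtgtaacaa
Tac1 encodes the precursor of the tachykinins substance P and neurokinin A. In the stretch below, capitals mark exon 4 (chr6:7557216-7557260, 45 bases) and exon 6 (chr6:7559099-7559152, 54 bases), with the end of exon 3 before them and exon 5 (chr6:7557720-7557743, 24 bases) between them in lower case. Exon 6 holds the code for neurokinin A.
Tac1 exons 4 to 6: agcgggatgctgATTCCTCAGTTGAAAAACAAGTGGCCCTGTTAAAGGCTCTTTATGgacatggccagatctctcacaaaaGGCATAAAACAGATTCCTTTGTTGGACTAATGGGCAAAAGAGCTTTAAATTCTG
Prph encodes peripherin, the intermediate filament protein of peripheral neurons. A stretch of 96 bases (chr15:99056937-99057032) is spliced out of Prph-201 and kept in Prph-202, the 2 Prph transcripts of the deposited tables. In Prph-202 it adds to the coding sequence, and the capitals mark its splice ends.
Prph retained intron: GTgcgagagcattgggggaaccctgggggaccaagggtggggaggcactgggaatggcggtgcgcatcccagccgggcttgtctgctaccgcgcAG

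Of the 46 genes, 39 were detected in both libraries, against 61.8% of 21474 protein coding genes. The 7 that were not are Nefh, Chat, Dbh, Slc6a2, Htr3a, Htr3b and Slc17a6. Together the 46 genes summed to 865 TPM in replicate 1 and 831 TPM in replicate 2. Their median level, with the 7 undetected genes included, was 9.54 TPM in replicate 1 and 9.06 TPM in replicate 2. The median over protein coding genes that were detected, a group without such low genes, was 18.9 TPM and 17.8 TPM. Vamp2, a vesicle membrane protein, was the highest member in both libraries at 78.5 TPM in replicate 1 and 78.8 TPM in replicate 2, followed by Uchl1 at 76.7 TPM and 74.7 TPM. Stmn2, Gap43 and the peptide precursor gene Penk came next, with ranges over the 2 libraries that overlapped in TPM.

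**Figure D1:**
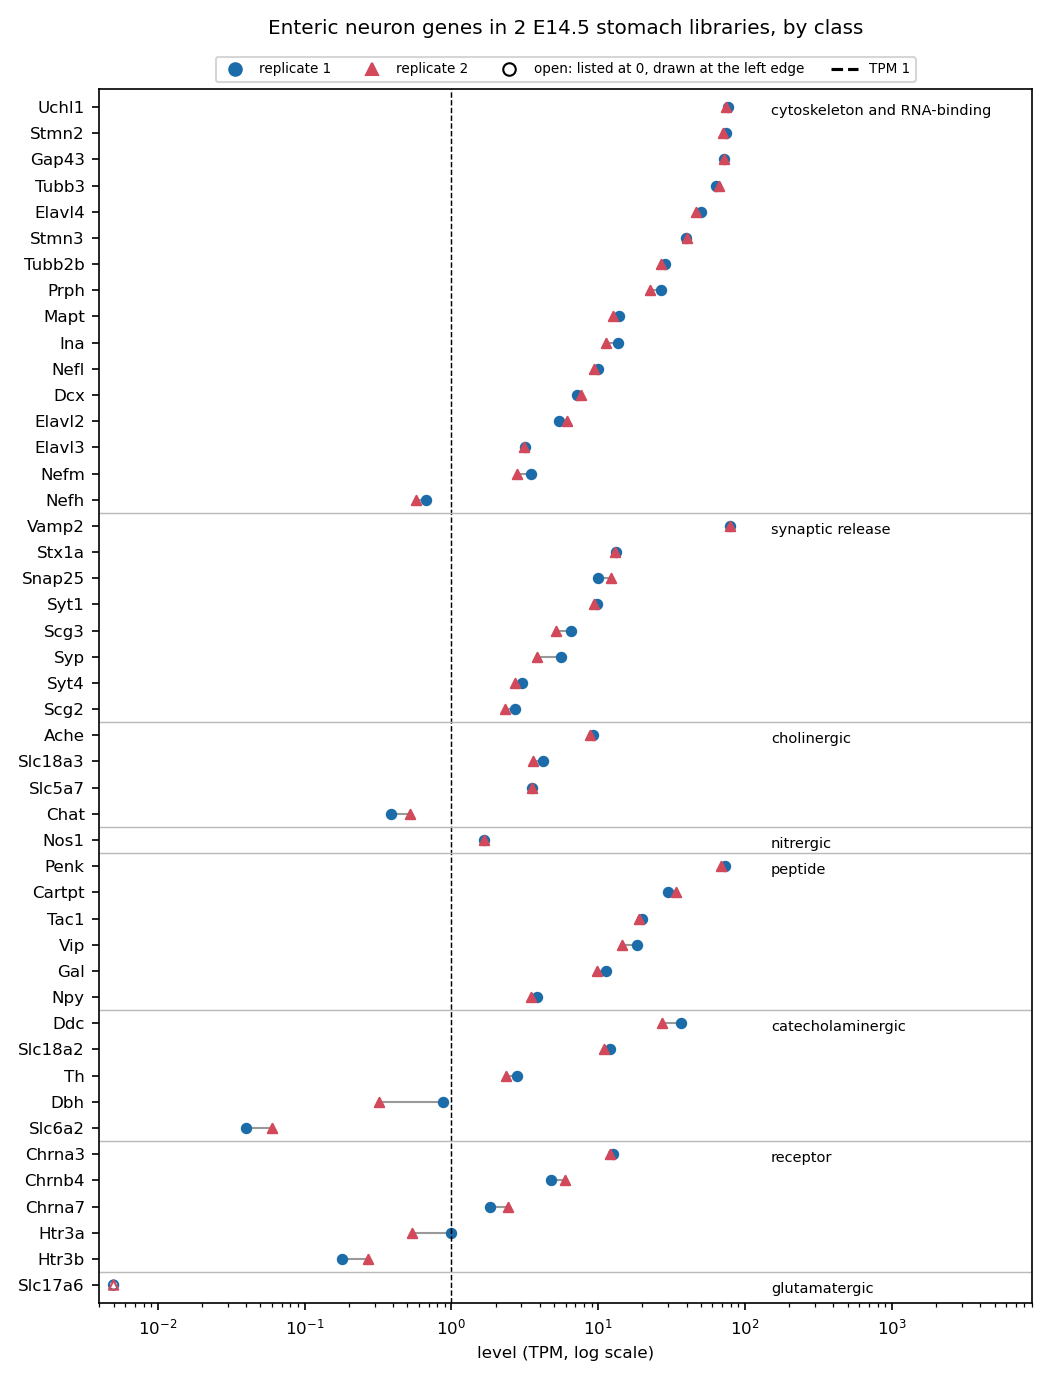
Level of each of the 46 genes in TPM on a log axis, grouped by class, with circles for replicate 1 and triangles for replicate 2 and a dashed line at TPM 1. The 7 genes that miss the line in at least 1 library include 4 of the enzymes and transporters for acetylcholine, catecholamines and glutamate, and Slc17a6 is listed at 0 in both libraries.

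The plot of levels by class shows that the cytoskeletal and RNA-binding genes were the most abundant class in summed TPM, with 488 TPM in replicate 1 and 474 TPM in replicate 2. Of its 16 genes 15 were detected, and the class median was 20.3 TPM in replicate 1 and 17.5 TPM in replicate 2. Peptide genes followed with a median of 19.1 TPM and 16.8 TPM and all 6 detected. Genes of synaptic release had a median of 8.17 TPM and 7.28 TPM with all 8 detected. The transmitter enzyme and receptor classes were lower, with medians of 3.86 TPM and 3.59 TPM for cholinergic genes, 2.81 TPM and 2.37 TPM for catecholaminergic genes, and 1.82 TPM and 2.44 TPM for receptor subunits.

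Among the RNA-binding proteins, Elavl4 (HuD) led the neuronal Hu genes, which bind AU-rich messages and whose proteins mark enteric neurons in stained tissue. Its level was 50.04 TPM in replicate 1 and 46.3 TPM in replicate 2, from 1425 and 1544 counts. Elavl2 (HuB) stood at 5.44 TPM and 6.10 TPM, and Elavl3 (HuC) at 3.18 TPM and 3.14 TPM. The level of Elavl4 in TPM was therefore 15.7 times that of Elavl3 in replicate 1 and 14.7 times in replicate 2. Elavl1, the Hu gene that nearly all cells use, was 1.28 and 1.31 times as high as Elavl4 in TPM in the 2 libraries. Part of the TPM of Elavl4 falls on short annotated transcripts, whose shares are given with the other transcripts.

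Tubb3, the tubulin used as a marker of young and mature neurons, had 63.4 TPM and 66.02 TPM. Tubb2b, another tubulin of growing neurons, had 28.5 TPM and 26.7 TPM. Tubb3 was 2.22 and 2.47 times as high as Tubb2b in TPM. The Tubb3 gene (chr8:123411424-123422015) lies inside the annotated span of Gm20388 on the same strand, which received 529 and 783 counts in the 2 libraries. Tubb3 itself took whole counts, 1891 and 2090, and a division of reads between the 2 genes was not tested. Stmn2, which destabilises microtubules in growth cones, had 73.6 TPM and 71.3 TPM, and its relative Stmn3 had 39.5 TPM and 40.4 TPM. Stmn1, a member of the same family that dividing cells also use, was 15.8 and 17.1 times as high as Stmn2 in TPM. Gap43, a growth-cone membrane protein, gave 71.9 TPM and 72.1 TPM, a spread of 0.127 TPM (SD, n = 2). Dcx, the doublecortin of migrating neurons, gave 7.18 TPM and 7.66 TPM, and Mapt (tau) gave 13.8 TPM and 12.6 TPM.

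The 5 intermediate filament genes formed a steep series. Prph was the highest, at 26.8 TPM in replicate 1 and 22.5 TPM in replicate 2, and Ina (alpha-internexin) followed at 13.7 TPM and 11.3 TPM. Of the neurofilament triplet, the light subunit gene Nefl had 9.90 TPM and 9.35 TPM, the medium subunit gene Nefm had 3.47 TPM and 2.80 TPM, and the heavy subunit gene Nefh had 0.67 TPM and 0.57 TPM. The order Nefl, Nefm, Nefh held in both libraries without overlap in TPM. Nefl exceeded Nefm 2.85-fold and 3.34-fold and Nefh 14.8-fold and 16.4-fold in TPM. Nefh rested on 44 and 40 counts. Nefl and Nefm overlap on opposite strands of chromosome 14, and Ina overlaps Nt5c2, which took 1758 and 1998 counts, on the opposite strand. Strand use in counting is not stated. Fractional counts arise where the estimate divides reads between genes. In replicate 1, Nefl (547.44) and Nefm (190.56) were fractional, and in replicate 2 they were whole (549 and 162). Ina (727.46 and 634.82) and Nt5c2 (1757.54 and 1998.18) were fractional in both libraries. How many reads such pairs shared was not tested.

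Of 26 further cytoskeletal and RNA-binding genes of neurons, 24 were detected. The 3 highest were Stmn1 (1159 TPM and 1218 TPM), Tuba1a (1057 TPM and 1044 TPM) and Tubb2a (161.6 TPM and 160.5 TPM), all of which are also used outside neurons. The list median was 19.3 TPM in replicate 1 and 18.2 TPM in replicate 2. The other two missed TPM 1 in 1 library each, Rbfox3, whose protein is the mature-neuron antigen NeuN, with 1.84 TPM and 0.86 TPM and the splicing factor gene Rbfox1 with 0.93 TPM and 1.20 TPM.

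All 8 genes of synaptic release were detected. Of the proteins that fuse vesicles with the cell membrane, Vamp2 sits on the vesicle and Snap25 and Stx1a sit on the membrane. Snap25 had 10.0 TPM in replicate 1 and 12.2 TPM in replicate 2, and Stx1a had 13.2 TPM and 13.0 TPM. Vamp2 exceeded Snap25 7.84-fold and 6.47-fold in TPM. Vamp2 also serves secretion in cells that are not neurons, and how much of its level came from neurons was not tested. The calcium sensor Syt1 gave 9.83 TPM and 9.39 TPM, and Syt4, a synaptotagmin of dense-core vesicles, gave 3.01 TPM and 2.72 TPM.

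Syp, which encodes the vesicle protein synaptophysin, had 5.62 TPM in replicate 1 and 3.82 TPM in replicate 2. Its log2 ratio of -0.43 (counting interval -0.73 to -0.14) was the lowest among the members that averaged at least 100 counts. The antisense gene Gm14703 overlaps Syp (chrX:7638471-7653256) with 2.32 and 11.17 counts, against 226.68 and 170.83 for Syp. Both genes took fractional counts, and the part of divided reads in the Syp ratio was not tested. Of the granins, which pack dense-core vesicles, Scg3 had 6.51 TPM and 5.17 TPM and Scg2 had 2.73 TPM and 2.33 TPM. Of 29 further release genes 26 were detected, led by Cpe (123 TPM and 103 TPM), a peptide-processing carboxypeptidase, then Sncg (28.0 TPM and 29.5 TPM) and, by the mean, Syt11 (20.7 TPM and 21.2 TPM). Rab3a was close to Syt11 at 21.8 TPM and 19.9 TPM, and their order differed between the libraries. The list median was 3.64 TPM and 3.45 TPM. The 3 not detected were the peptide-cleaving convertases Pcsk1 (1.06 TPM and 0.69 TPM) and Pcsk2 (0.94 TPM and 0.77 TPM) and the synuclein gene Sncb (0.57 TPM and 0.45 TPM).

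The cholinergic genes differed by step. Chat, the enzyme that makes acetylcholine, was at 0.39 TPM in replicate 1 and 0.52 TPM in replicate 2, from 18 and 25 counts, and was not detected. Slc18a3, which loads acetylcholine into vesicles, was at 4.20 TPM and 3.62 TPM, and Slc5a7, which takes up choline, was at 3.52 TPM and 3.56 TPM. Both transporter genes therefore stood above the enzyme gene in each library. In TPM, Slc18a3 exceeded Chat 10.8-fold and 6.96-fold, and Slc5a7 exceeded it 9.03-fold and 6.85-fold. Ache, which breaks acetylcholine down, was the highest of the 4 at 9.24 TPM and 8.76 TPM.

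Slc18a3 and Chat share a locus on the minus strand of chromosome 14. Slc18a3 is a single exon of 2413 bases at chr14:32462438-32464850, inside the intron between exon 1 (chr14:32465807-32465957) and exon 2 (chr14:32460725-32460913) of the Chat transcript Chat-201. The pair shares no exonic base, so reads inside exons need not be split between them. Unspliced Chat RNA covers the Slc18a3 exon, and its part in the Slc18a3 count was not tested. An antisense gene, Gm2990, overlaps Chat and took 13 and 22 counts.

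Of the nicotinic receptor subunits, which pass fast signals between enteric neurons, Chrna3 was the highest with 12.6 TPM in replicate 1 and 12.1 TPM in replicate 2. Its usual partner Chrnb4 had 4.80 TPM and 5.92 TPM. The 2 genes are neighbours on chromosome 9, 1591 bases apart and on the same strand, and Chrna3 exceeded Chrnb4 2.62-fold and 2.04-fold in TPM. Chrnb4 had the highest log2 ratio among members at 100 counts or more, 0.37 (counting interval 0.14 to 0.60), while that of Chrna3 was 0.01 (-0.15 to 0.17). Chrna7, which forms channels of a single subunit type, gave 1.82 TPM and 2.44 TPM from 61 and 87 counts. Of 13 other nicotinic subunit genes 3 were detected, namely Chrnb1 (5.65 TPM and 4.88 TPM), Chrna5 (2.47 TPM and 1.61 TPM) and Chrna4 (1.15 TPM and 1.32 TPM). Chrnb1 is a subunit of the muscle receptor, and the other muscle subunit genes Chrna1, Chrnd, Chrne and Chrng took at most 6 counts in a library.

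Both serotonin-gated channel genes were below the detection level. Htr3a had 0.99 TPM in replicate 1 and 0.54 TPM in replicate 2, from 33 and 19 counts, and Htr3b had 0.18 TPM and 0.27 TPM, from 7 and 11 counts. The interval of the log2 ratio of Htr3a ran from -1.71 to 0.04, so a difference between the libraries was not detectable at this depth.

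On the receiving side, muscarinic receptor genes were led by Chrm2 at 27.4 TPM and 24.4 TPM, which smooth muscle also uses, and Chrm3 had 3.55 TPM and 3.81 TPM. Of 25 listed receptor and signal genes for the members' transmitters, Chrm2 and Chrm3 included, 8 were detected. The listed receptor genes for enkephalins (Oprm1, Oprd1), galanin (Galr1, Galr2) and neuropeptide Y (Npy1r, Npy2r, Npy5r) were not. The highest of them missed TPM 1 in replicate 2 only, Npy1r with 1.51 TPM and 0.88 TPM and Oprm1 with 1.03 TPM and 0.74 TPM. Other detected genes of the list included Gucy1a1, Gucy1b1, Prkg1, Vipr2 and Tacr1. The 2 highest, Gucy1a1 (61.2 TPM and 61.9 TPM) and Gucy1b1 (52.1 TPM and 47.1 TPM), encode the guanylate cyclase that nitric oxide activates.

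Nos1, the neuronal nitric oxide synthase, had 1.67 TPM in both libraries, from 280 and 300 counts. TPM divides by length, and Nos1-206, which held 98.6% and 100% of the gene's TPM, has 10123 bases, so the level is low for that many counts. Nos3, the synthase of blood vessels, was higher at 3.70 TPM and 3.42 TPM. Nos2 was at 0.72 TPM and 1.13 TPM.

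The peptide genes covered both excitatory and inhibitory transmitters. Penk, the precursor of the enkephalins, led with 73.4 TPM and 68.7 TPM, and Cartpt, the precursor of the CART peptides, followed with 29.7 TPM in replicate 1 and 34.0 TPM in replicate 2. Tac1 had 19.8 TPM and 19.0 TPM, and Vip, the main peptide of inhibitory neurons, had 18.4 TPM and 14.5 TPM. Penk was the highest of the 6 in both libraries and exceeded Npy, the lowest, 19.3-fold and 19.8-fold in TPM. Gal (galanin) had 11.3 TPM and 9.85 TPM, and Npy (neuropeptide Y) had 3.81 TPM and 3.47 TPM. Because the messages are short, Npy passed the detection level with 30 and 29 counts. The non-coding gene A830012C17Rik overlaps Penk on the opposite strand with 31.1 and 51.2 counts, against 1470 and 1424 for Penk.

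Cartpt and Vip differed in opposite directions between the libraries. The log2 ratio was 0.26 for Cartpt (counting interval 0.06 to 0.46) and -0.27 for Vip (-0.48 to -0.07), so each interval left out 0 on another side. Of 10 further peptide genes 5 were detected, led by Grp (3.02 TPM and 2.34 TPM), Cck (2.02 TPM and 2.19 TPM) and Calcb (1.79 TPM and 2.07 TPM), and none of the 10 reached a mean of 100 counts.

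Among the catecholaminergic genes Ddc was the highest, and Dbh and Slc6a2 were not detected. Th, which makes L-DOPA from tyrosine, stood at 2.81 TPM in replicate 1 and 2.37 TPM in replicate 2, from 82 and 70 counts. Ddc, which decarboxylates L-DOPA and also the serotonin precursor, stood at 36.5 TPM and 27.4 TPM and exceeded Th 13.0-fold and 11.6-fold in TPM. Slc18a2, which loads monoamines into vesicles, stood at 12.0 TPM and 11.01 TPM, 4.27 and 4.65 times Th. Gch1, which makes the cofactor that Th needs, had 3.92 TPM and 3.28 TPM. Dbh, which turns dopamine into noradrenaline, took 14 counts in each library and was listed at 0.87 TPM and 0.32 TPM. The TPM values differ at equal counts because 1 count of replicate 1 was given to Dbh-202, a fragment of 205 bases, which then made up 64.0% of the gene's TPM. Slc6a2, the noradrenaline transporter, took 4 and 6 counts, and Pnmt, which makes adrenaline, was listed at 0 in both libraries.

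**Figure D2:**
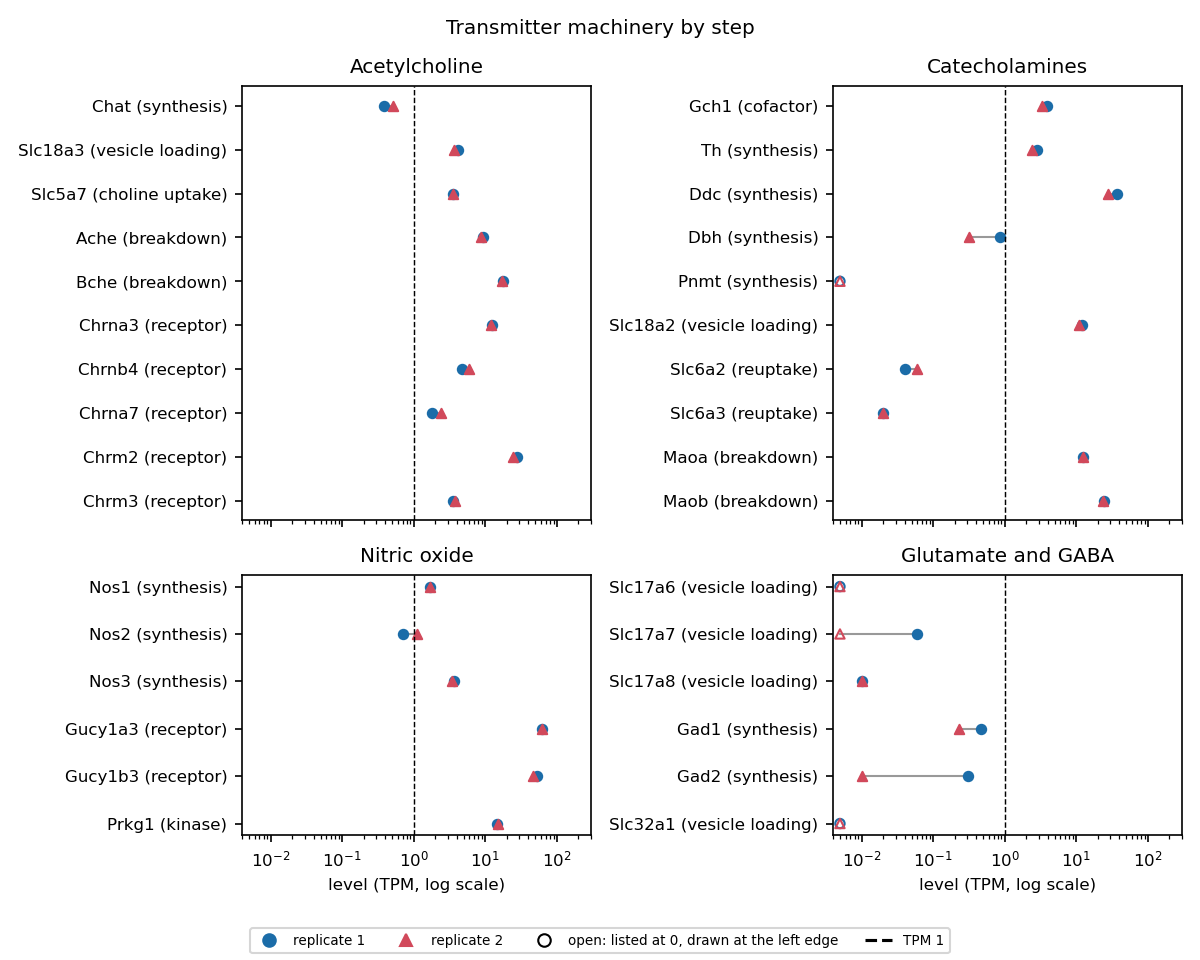
Level in TPM on a log axis of genes for each step of acetylcholine, catecholamine, nitric oxide, and glutamate and GABA signalling, with circles for replicate 1, triangles for replicate 2 and open symbols for a value of 0. Chat lies left of the dashed line at TPM 1 while Slc18a3 and Slc5a7 lie right of it, Ddc lies right of Th, and all 6 glutamate and GABA genes lie left of the line.

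The plot by step also sets out the transmitters with next to no counts. Slc17a6, which loads glutamate into vesicles, took 0 counts in each library, where a count of 0 allows up to 3 counts, or 0.127 CPM (counts scaled to the total over genes, without length) in replicate 1 and 0.126 CPM in replicate 2. Its relatives Slc17a7 and Slc17a8 took 3 and 0 counts and 1 and 1 counts. For GABA, Gad1 took 14 and 8 counts, Gad2 took 9 and 1, and the vesicle transporter Slc32a1 took 0 in both libraries. Among further genes of transmitter turnover, the breakdown enzyme genes Maob (24.7 TPM and 23.7 TPM) and Bche (17.9 TPM and 17.3 TPM), which many cell types use, were detected. Tph2, which makes serotonin in neurons, was at 0 counts in both libraries.

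Marker genes of cell types, taken from outside the list, were read as well, and which cells gave the members' RNA was not tested. Of the genes of enteric neuron fate, Ret, the receptor that enteric neural crest cells need, had 8.57 TPM in replicate 1 and 7.85 TPM in replicate 2. The transcription factor genes Hand2 (14.8 TPM and 13.6 TPM), Phox2a (8.72 TPM and 7.03 TPM) and Tlx2 (7.08 TPM and 6.20 TPM) were detected as well. All 6 genes of enteric glia and progenitors were detected too, summing to 101 TPM and 96.1 TPM. None of 6 brain genes was detected, with a sum of 0.24 TPM and 0.07 TPM and Olig2 at 0 in both libraries. Of 6 sensory ganglion genes only Isl2 was detected (7.09 TPM and 5.71 TPM).

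**Figure D3:**
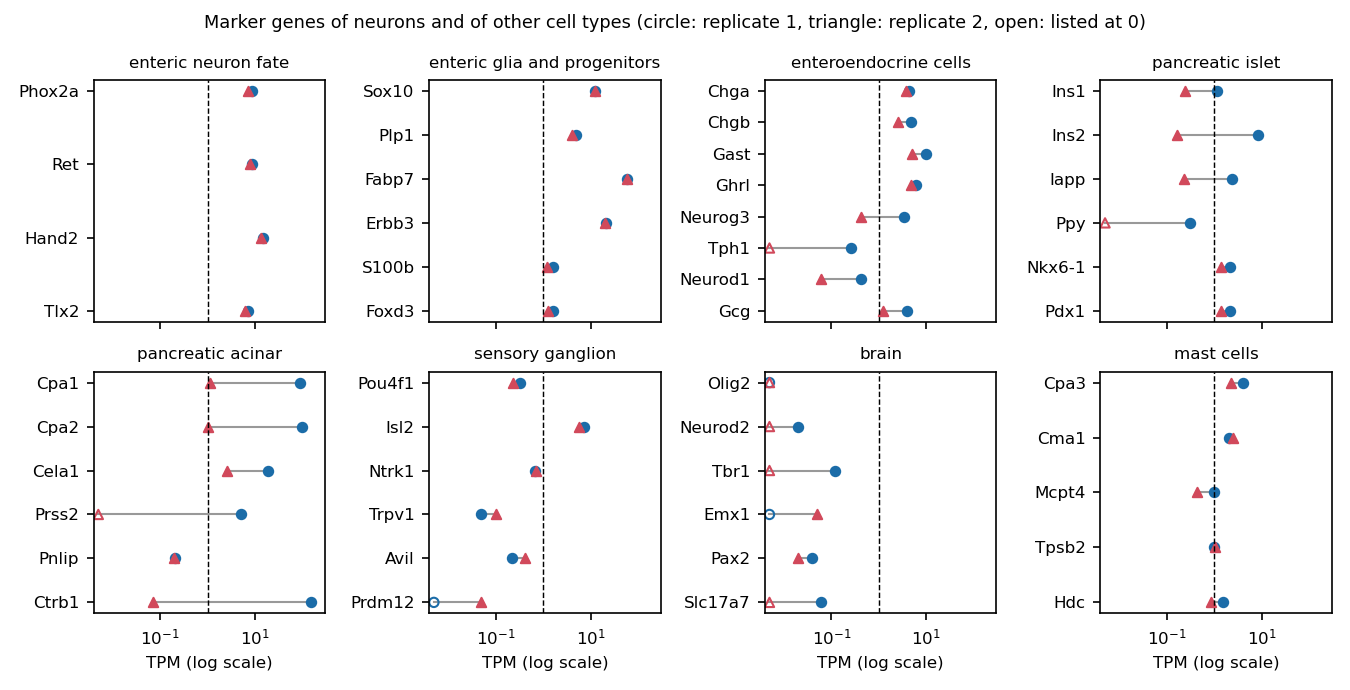
Level in TPM on a log axis of marker genes for enteric neurons, enteric glia and 6 other cell types, with circles for replicate 1, triangles for replicate 2 and open symbols for a value of 0. Neuron fate and glial genes sit at close levels in the 2 libraries, while enteroendocrine, islet and acinar genes lie mostly further left in replicate 2.

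The plot of marker genes shows other sources that could share members of the list. Enteroendocrine cells make peptides and use Ddc, Slc18a2 and granins, and 5 of their 8 marker genes were detected, summing to 33.0 TPM in replicate 1 and 18.0 TPM in replicate 2. The 6 acinar genes of the pancreas summed to 361 TPM in replicate 1 and 4.93 TPM in replicate 2, with Prss2 at 0 in replicate 2, and the 6 islet genes summed to 16.3 TPM and 3.36 TPM, with Ppy at 0 in replicate 2. Mast cell genes, of which 2 of 5 were detected, summed to 9.48 TPM and 7.08 TPM. Among Ddc, Slc18a2 and the granins, Ddc had a log2 ratio of -0.32 (counting interval -0.46 to -0.19) and Slc18a2 -0.06 (-0.21 to 0.09). The granin genes had -0.27 (-0.55 to 0.01, Scg3) and -0.14 (-0.55 to 0.28, Scg2). The peptide members went both ways. Cartpt (0.26, 0.06 to 0.46) and Tac1 (0.11, -0.13 to 0.36) were higher in replicate 2. Penk (-0.07, -0.17 to 0.04), Npy (-0.07, -0.86 to 0.72), Gal (-0.14, -0.53 to 0.25) and Vip (-0.27, -0.48 to -0.07) were lower. The neuronal filament genes Prph (-0.20, -0.35 to -0.04) and Ina (-0.22, -0.37 to -0.06) were also lower in replicate 2. The part of enteroendocrine and pancreatic cells in these differences was not tested.

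Between the libraries the members lay close together. Of the 36 genes that averaged at least 100 counts, 0 differed by over 2-fold, against 0.298% of 12761 genes at the same count, a share so small that a count of 0 says nothing particular about these 36. The ratio was above 0 for 20 genes and below 0 for 16, with a median of 0.02, and the median over all such genes was -0.01. The median size of the log2 ratio was 0.10 for the members and 0.10 for all such genes. Class medians of the log2 ratio ran from -0.19 over the 2 catecholaminergic genes at that count to 0.19 over the 2 receptor genes. Scaling on the spike-ins lowered every log2 ratio by 0.27, and then 1 member stood above 0 and 35 below. Directions between the libraries therefore hold only relative to the other genes.

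The counting interval left out 0 for 8 of the 36 members, against 34.9% of all 12761 genes at that minimum. Intervals narrow with depth, and 10344 of the 12761 genes lay within the members' range of mean count, so the 34.9% also covers other depths. Of the 8 members, Tubb3, Cartpt and Chrnb4 were higher in replicate 2, and Prph, Ina, Syp, Vip and Ddc were lower. Ddc had the tightest interval among the last 5, from 1038 and 842 counts. These intervals hold no variation between embryos or library preparations, so they do not show a difference between groups.

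**Figure D4:**
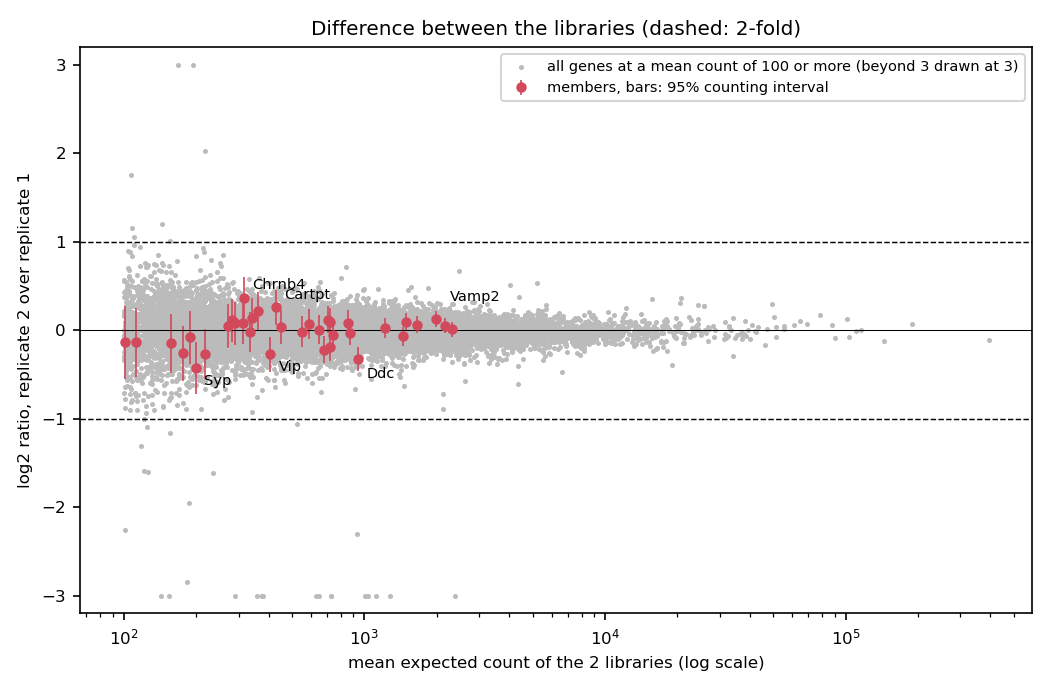
Log2 ratio of replicate 2 over replicate 1 against the mean expected count on a log axis, with grey points for all genes at 100 counts or more and red points for the 36 members with their 95% counting intervals. The members run from -0.43 for Syp to 0.37 for Chrnb4, inside the cloud of other genes and inside the dashed lines at 2-fold.

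The plot of ratios by count places each member among genes of like depth, where the cloud narrows as counts grow. At the deep end, Stmn2 with 2288 and 2343 counts had a log2 ratio of 0.01 (-0.07 to 0.10) and Vamp2 with 2119 and 2227 counts had 0.05 (-0.04 to 0.14). At the shallow end, Scg2 with 105 and 97 counts had -0.14 with an interval from -0.55 to 0.28. Among members under 100 counts, Chrna7 had 0.49 (0.00 to 0.99), Th had -0.25 (-0.73 to 0.23) and Chat had 0.44 (-0.48 to 1.41).

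The transcript tables add which forms of these genes were read. They list 1 transcript for 23 members and several for the other 23, of which 20 averaged at least 100 counts. In 18 of the 20 the same transcript led in both libraries, and it differed in 2 (Elavl2 and Scg2), while it differed in 9.23% of 9197 genes with several transcripts at that count. Shares are percents of the gene's TPM as estimated by the authors, and no interval can be given for them because reads common to several transcripts were divided by the estimate.

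**Figure D5:**
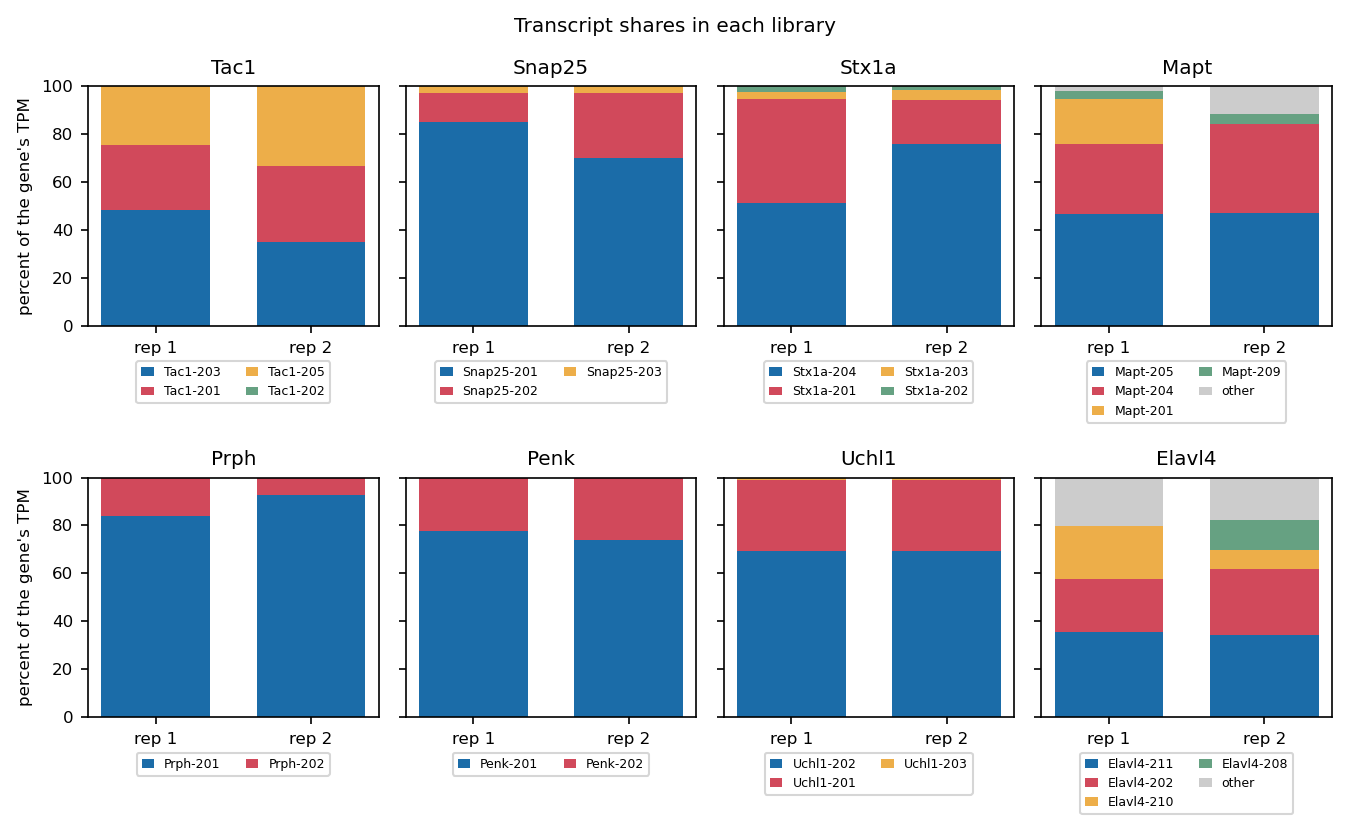
Stacked bars of the share of each annotated transcript in its gene's TPM, in percent, for 8 members in replicates 1 and 2, with grey for all other transcripts. Uchl1 and Penk keep nearly the same split in both libraries, while the leading share is 51.1% and 75.7% for Stx1a and 85.1% and 70.1% for Snap25.

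In the plot of transcript shares, 3 genes are led by a transcript that is not annotated as protein coding. For Uchl1, a deubiquitinating enzyme of neurons, Uchl1-202 (retained intron) took 69.4% of the TPM in replicate 1 and 69.3% in replicate 2, from 790 and 815 counts. The coding Uchl1-201 took 29.6% in each. In GENCODE M21, Uchl1-202 starts at chr5:66676892, shortly before exon 3 of Uchl1-201 (chr5:66676944), and shares nearly all exonic bases from there on. Reads in shared bases do not tell the forms apart, so the shares are no measure of intron retention alone. For Elavl4, the processed transcript Elavl4-211 of 869 bases took 35.4% and 34.3%. The coding Elavl4-202 of 4024 bases took 22.1% and 27.7% of the TPM but 732 and 902 of the counts. Short fragments thus weigh more in TPM than in reads. All coding forms of Elavl4 together held 42.3% and 58.1% of its TPM.

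Stx1a was led by Stx1a-204, annotated as a target of nonsense-mediated decay, with 51.1% in replicate 1 and 75.7% in replicate 2. The coding Stx1a-201 had 43.6% and 18.2%. The 2 forms differ inside the gene by 83 bases (chr5:135048911-135048993) that extend exon 9 of Stx1a-204 upstream. The gene's total level over all forms was 13.1 ± 0.148 TPM (SD, n = 2).

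For Snap25, Snap25-201 with the downstream exon printed above took 85.1% in replicate 1 and 70.1% in replicate 2, and Snap25-202 with the upstream exon took 11.9% and 27.0%, from 18.3 and 53.8 counts. The annotated last exon has 1354 bases in Snap25-201 and 277 in Snap25-202, so reads beyond the shorter end count only for Snap25-201. The shares are therefore no measure of exon choice alone.

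The 3 coding forms of Tac1 printed in part above were all present. Tac1-205, with exons 4 and 6 (the beta form), took 24.5% and 33.5%, Tac1-203, without exon 4 (the gamma form), took 48.1% and 34.9%, and Tac1-201, without exon 6 (the alpha form), took 27.4% and 31.6%. Forms with exon 6 held 72.6% in replicate 1 and 68.4% in replicate 2. Prph-202, which keeps the 96 bases printed above, held 16.0% and 7.19% of the gene's TPM, from 128 and 51.0 counts, and Prph-201 held the rest.

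Mapt gave mostly forms without the N-terminal inserts of tau. Mapt-204 and Mapt-205 together held 75.8% in replicate 1 and 84.2% in replicate 2. Mapt-209 (3.63% and 4.19%) and Mapt-211 (0% and 4.58%) lack the inserts as well. Mapt-201, which has both inserts, took 18.6% in replicate 1 and 0% in replicate 2. Mapt-202 (0.72% and 0%) and Mapt-203 (0% and 2.01%) also have both. The exon of 93 bases at chr11:104318157-104318249, which encodes an extra microtubule-binding repeat, is present in all 5 annotated transcripts that span it, so these tables cannot show forms without it.

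The leading share was under 60% on average over the 2 libraries in 7 genes. They are Elavl4, Mapt and Tac1, given above, with Elavl2, Dcx, Vamp2 and Scg2. Dcx-201 led with 63.6% and 56.0%, Vamp2-201 with 59.99% and 58.2%, and Scg2-202 with 66.2% in replicate 1 and 46.6% in replicate 2, where Scg2-201 led. Elavl2-209 led in replicate 1 with 38.7% and stood below Elavl2-201 in replicate 2, at 14.9% against 28.9%. It took 142.9 and 65.5 counts. Ddc has several start sites, and its lead form Ddc-210 (start at chr11:11898144) took 59.0% and 68.6%, while Ddc-202 (start at chr11:11890408) took 20.9% and 14.4%.

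Promoter letters were read for the cyclic AMP response element, because Th, Scg2, Vip and other transmitter genes are known to answer to cyclic AMP. The motif was TGACGTCA, which reads the same on both strands, in the 250 bases before each RefSeq start (GRCm38.p6). It was found in 3 of 45 promoters of 33 members (6.67%) and in 508 of 32851 promoters of all genes (1.55%). The promoter set has no entry for 13 members. Because the motif was chosen with members such as Th and Scg2 in mind, these shares cannot test whether members hold it more often. Below, 30 bases around each match are shown on the gene's own minus strand, with the motif in capitals. The windows are chr1:79440076-79440105 for Scg2, chr7:142900022-142900051 for Th and chr13:99900777-99900806 for Cartpt.
Scg2 promoter: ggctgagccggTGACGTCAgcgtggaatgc
Th promoter: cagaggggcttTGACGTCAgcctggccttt
Cartpt promoter: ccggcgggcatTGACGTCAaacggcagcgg
The matches begin at position -68 for Scg2, -45 for Th and -112 for Cartpt, counted from the start. Scg2 and Th were at close levels, 2.53 ± 0.283 TPM and 2.59 ± 0.311 TPM, and Cartpt was higher at 31.9 ± 3.06 TPM (SD, n = 2). GENCODE M21 extends all 3 genes upstream of these windows, so the positions hold for the RefSeq starts only. For Th and Scg2 it also has starts downstream of the windows. These are Th-201 (chr7:142900014), with 100% and 94.0% of the gene's TPM, and Scg2-202 (chr1:79440042), with 66.2% and 46.6%. A match of letters is no evidence of a bound factor.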

How the data were processed

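Members and gene lists were chosen with earlier results of these data known. The authors deposited gene and transcript tables for each library, with genome build mm10 and annotation GENCODE M4 per the labels and deposited notes. The aligner and counter: not given in the sources used here. The deposited expected counts are estimated reads per gene, not normalized. The deposited TPM values are per length and scaled to a total that includes the spike-ins. The deposited percent values are shares of each transcript in the TPM of its gene. The labels call the replicates biological, so their spread holds differences between embryos and between library preparations.

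Symbols come from GENCODE M21 (42462 of 43346 identifiers matched), and 2 listed genes were matched through their RefSeq synonyms, Gucy1a3 to Gucy1a1 and Gucy1b3 to Gucy1b1. The 96 spike-ins and the entries named by a bare number (15.5 and 25 counts) stayed out of library sizes. Total expected counts were 25072242 and 25599910. Of the 46 members, 39 had whole counts in both libraries within 0.005. Ratios used edgeR 4.0.16 (R 4.3.3) with TMM library sizes and 0.5 added to each count, and intervals are exact binomial on rounded counts. The script was tested on simulated data. All 46 members were named. Further genes came from fixed lists, as the 3 highest in TPM and relatives of a member. Some listed genes are not reported here. Leading transcripts were named where they held under 60%, differed between libraries or were not protein coding, and other transcripts were chosen after their values were seen. All 151 member transcripts are in GENCODE M21, 129 of them with the same length, and those of Uchl1, Prph and Chat-201 differ. Promoters come from RefSeq. Protein sequences were not used here. Alternatives were DESeq2 1.42.0 size factors, spike-in and TPM ratios, other filters, added counts and thresholds. Further ones were posterior mean TPM, TPM rescaled over nuclear genes only (spike-ins and mitochondrially encoded genes left out), and each library alone. Python 3.11.15 and matplotlib 3.10.9 were used for tables and figures.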

Additional observations from a re-analysis of the deposited data

How the results depend on the processing

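The count of detected members was 39 with posterior mean TPM, with TPM rescaled over nuclear genes only and in either library alone. It was 41, 37 and 27 at thresholds of 0.5, 2 and 5 TPM. Of the 36 members at a mean count of 100 or above, 0 exceeded 2-fold under DESeq2 size factors, spike-in totals, the TPM ratio, or 1 or 5 added to each count. The share over all 12761 genes at that count lay between 0.282% and 0.494% in these settings. With TMM, 0 of 43 members exceeded 2-fold at a minimum of 10, against 3.60% of 17510 genes. With no minimum it was 0 of 46, against 11.7% of 43346 genes. The members are deeper as a set, because 36 of the 46 but only 12761 of the 43346 genes averaged at least 100 counts. The shares of 3.60% and 11.7% are therefore no background of like depth. Below 100 counts, Htr3a had a log2 ratio of -1.06 under spike-in totals and Dbh -1.42 in the TPM ratio. The median log2 ratio of the members was -0.25 under spike-in totals and between -0.07 and 0.03 under the other settings. Rescaling TPM over nuclear genes only raised class medians, by construction. They became 22.7 for cytoskeletal and RNA-binding genes, 9.26 for synaptic release, 4.47 for cholinergic, 2.00 for nitrergic, 21.5 for peptide and 3.10 for catecholaminergic genes. Posterior mean TPM gave medians of 2.09 for the nitrergic, 3.26 for the catecholaminergic and 0.01 for the glutamatergic class, and the cause was not tested. Leading shares under 60% numbered 7, or 10 with posterior mean percents. No paired analysis was possible because the 2 libraries form 1 group. Depth limits Chat, Dbh, Slc6a2, Htr3a and Htr3b, which rest on at most 33 counts in a library.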
